A study of Mus musculus with 15 samples.

Results

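The genes described here are enzymes and transporters of glycolysis and targets of the cellular response to low oxygen, measured in mouse chondrocytes, the cells of cartilage, after 4 inhibitors and their vehicle. They were chosen by name from what the genes are known to do, as a list of 33, and a gene was read through the probe set with the highest mean among those annotated to it alone. Of the 33 genes, 29 were measured in this way, out of 18193 genes named on the array. More than 1 probe set was annotated to 18 of the 29, and 65 probe sets covered them all. Gpi1 and Eno1 had no probe set annotated to them here, and the 3 probe sets of Bnip3l and the 3 of Gapdh were each shared with other genes or pseudogenes and were not used, except that Gapdh was also read by array control probe sets.

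Primary chondrocytes were isolated from the hind limb long bones of CD1 mouse embryos at embryonic day 15.5 and grown in monolayer. RNA was hybridized to 15 Affymetrix arrays, 3 for each of 5 treatments. The paper names 3 independent experiments for the LY294002 and DMSO cultures. The 4 treated groups received LY294002, an inhibitor of the lipid kinase PI3K upstream of Akt, at 10 µM, UO126, an inhibitor of the kinase MEK upstream of ERK, SB202190, known as an inhibitor of p38 kinases, or Trichostatin A (TSA), an inhibitor of histone deacetylases, and the vehicle DMSO served as control. The doses of UO126, SB202190 and TSA are not given in the sources used here, and the treatment time is 24 h in the labels but 2 h in the deposited design text. The labels name no low-oxygen treatment. The 12 chondrocyte markers examined, among them Col2a1, Acan and Sox9, had a mean signal above the filter, log2 of 50, in every treatment. Signals are on the log2 scale, so that a difference of 1 is a doubling, and medians of the 15 arrays lay between 6.90 and 6.996. The 3′ minus 5′ signal of the control transcripts, a sign of RNA integrity, ranged from 0.10 to 0.31 for Gapdh and from 0.33 to 0.51 for actin.

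Glycolysis splits glucose into pyruvate in the cytosol and yields ATP without oxygen, and lactate dehydrogenase then turns pyruvate into lactate. When oxygen is scarce the prolyl hydroxylases of the EGLN family no longer mark the alpha subunit of hypoxia-inducible factor (HIF) for degradation, and HIF switches on glucose transporters, glycolytic enzymes and genes such as Bnip3, Ndrg1 and Car9. Growth plate cartilage has no blood vessels, and its chondrocytes depend on HIF and on glycolysis.

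Many of these genes carry in their promoters the letters ACGTG or GCGTG, the core of the hypoxia response element that HIF binds. The windows of 5 called members, all of which hold a core, are printed as examples: Ddit4 was called in 3 treatments, Aldoc in 2, Egln3 was among the 3 largest changes in TSA, Bnip3 was called in 2 and Ldha fell in TSA. Each runs 5′ to 3′ from 250 bases before to 50 after the transcript start in RefSeq on GRCm38.p6, and capitals mark the core on either strand, CACGT and CACGC being the same letters read from the other strand.
Ddit4: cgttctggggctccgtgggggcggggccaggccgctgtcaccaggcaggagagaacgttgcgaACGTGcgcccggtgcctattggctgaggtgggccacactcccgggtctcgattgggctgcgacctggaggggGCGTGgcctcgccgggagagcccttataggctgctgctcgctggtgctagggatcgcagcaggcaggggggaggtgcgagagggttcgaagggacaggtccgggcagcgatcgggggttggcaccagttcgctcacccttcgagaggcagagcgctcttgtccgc
Egln3: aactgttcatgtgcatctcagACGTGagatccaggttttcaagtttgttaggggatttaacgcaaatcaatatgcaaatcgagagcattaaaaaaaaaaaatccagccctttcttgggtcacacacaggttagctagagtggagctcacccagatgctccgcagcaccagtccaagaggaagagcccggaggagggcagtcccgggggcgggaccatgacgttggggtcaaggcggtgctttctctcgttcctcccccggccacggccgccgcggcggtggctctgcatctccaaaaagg
Aldoc: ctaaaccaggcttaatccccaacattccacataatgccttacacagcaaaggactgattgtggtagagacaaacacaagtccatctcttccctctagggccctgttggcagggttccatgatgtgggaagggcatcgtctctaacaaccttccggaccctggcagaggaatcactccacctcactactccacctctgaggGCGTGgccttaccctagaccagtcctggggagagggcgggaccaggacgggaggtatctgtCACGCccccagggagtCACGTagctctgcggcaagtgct
Bnip3: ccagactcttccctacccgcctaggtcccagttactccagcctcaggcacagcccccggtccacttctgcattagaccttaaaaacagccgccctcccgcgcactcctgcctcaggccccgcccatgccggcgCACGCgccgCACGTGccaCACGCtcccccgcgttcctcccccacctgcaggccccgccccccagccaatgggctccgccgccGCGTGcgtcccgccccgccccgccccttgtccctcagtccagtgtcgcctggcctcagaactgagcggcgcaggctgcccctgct
Ldha: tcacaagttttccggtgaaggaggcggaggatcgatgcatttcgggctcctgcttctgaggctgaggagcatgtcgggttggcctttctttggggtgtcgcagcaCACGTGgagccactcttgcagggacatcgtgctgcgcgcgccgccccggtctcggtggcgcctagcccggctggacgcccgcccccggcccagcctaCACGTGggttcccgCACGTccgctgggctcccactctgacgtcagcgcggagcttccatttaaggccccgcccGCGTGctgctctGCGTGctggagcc
They lie at chr10:59951721-59952020 (minus strand, Ddit4), chr12:54203825-54204124 (minus strand, Egln3), chr11:78322823-78323122 (plus strand, Aldoc), chr7:138909457-138909756 (minus strand, Bnip3) and chr7:46845554-46845853 (plus strand, Ldha). The Ddit4 window held 2 cores, that of Egln3 1, Aldoc 3, Bnip3 5 and Ldha 7, where the letters CACGTG carry the core on both strands and count as 2. The marked stretches are thus 4 in the Bnip3 window, with 1 CACGTG, and 5 in that of Ldha, with 2. Windows were found for 27 of the 29 genes, not for Slc2a3 and Ndrg1, and 25 of the 27 held at least 1 core, those of Tpi1 and Car12 being without. Slc2a3, the largest change in TSA, and Car12, called in LY294002, are thus not among the windows printed. By window, 31 of 38 held a core (81.6%), against 43.8% of all 32851 promoter windows, where ACGTG also forms the inner part of the E-box CACGTG, found in 5 of the 38 and in 7.2% of all. The genes were chosen in part as targets of the response to low oxygen, and every window of a gene was counted. Both cores contain the letters CG, for which the windows were not matched. What made the shares differ was not tested. A match is a description of the letters, not a bound site.

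Across the 5 treatments, 23 of the 29 genes differed by a moderated F test (limma, adjusted p of 0.05 by Benjamini-Hochberg over all probe sets that reached the filter), a share of 79.3% against 44.5% of all 35193 probe sets tested. Among them is Ankrd37, which reached the filter through its TSA mean alone and so had to differ to be tested, and without it the count was 22 of 28 (78.6%). The 6 that did not pass were Pfkfb3, Pgk1, Pgam1, Pdk1, Hif1a and Egln1, so that the oxygen-regulated transcription factor subunit itself was among the genes with no call. The treatment accounted for a median of 84.4% of the sum of squares of a gene over the 15 arrays and for more than 50% in 26 of 29 genes. The replicate number accounted for a median of 7.06% and for more than 20% in 5 genes, Pdk1, Pfkfb3, Pgam1, Hif1a and Hk2. That share need not be one of the experiment in every treatment. The TSA arrays numbered 1 and 2 correlated with those of DMSO (0.24 and 0.47), and the array numbered 3 did not (0.028). The count of 23 was 9 when the TSA arrays were left out, in a test with fewer samples. The share of all probe sets passing that test is not given here, so the 9 has no background to be set against. Averaged over the 29 genes, the deviation from the DMSO mean lay between 0.56 and 0.68 on the 3 TSA arrays, between -0.15 and 0.03 on the LY294002 arrays, between -0.05 and 0.13 on the UO126 arrays, between -0.00 and 0.06 on the SB202190 arrays and between -0.07 and 0.13 on the DMSO arrays themselves. The TSA arrays thus stood above all others, and the kinase inhibitors overlapped DMSO.

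**Figure D1:**
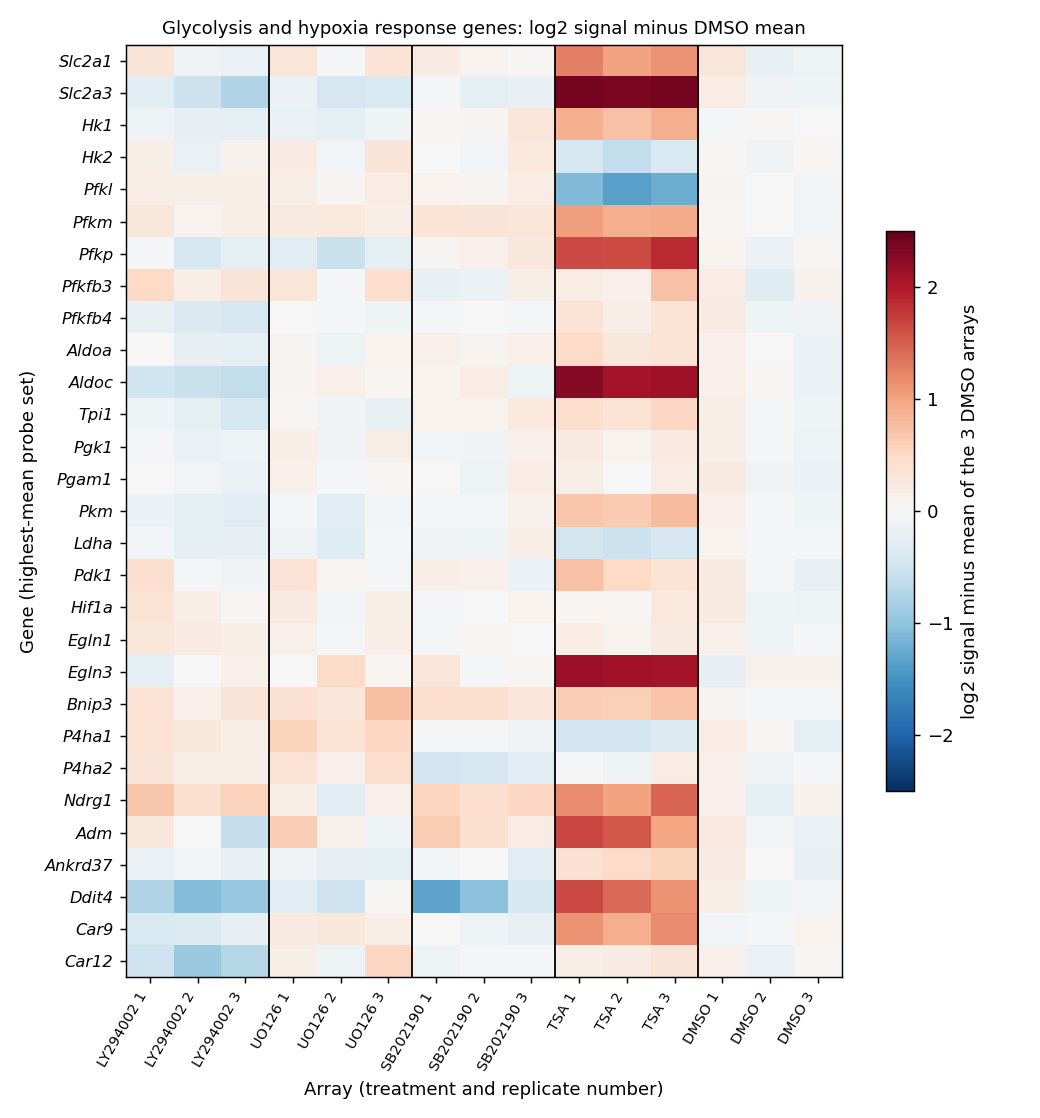
Log2 signal of each of the 29 genes (rows, ordered by role) on each of the 15 arrays (columns, in the order LY294002, UO126, SB202190, TSA and DMSO), drawn as the difference from the gene's DMSO mean. The TSA columns hold the strong colours, with Slc2a3, Aldoc and Egln3 above DMSO and Pfkl below it on each of the 3 arrays, while Ddit4 is below DMSO in the LY294002 and SB202190 columns.

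PI3K inhibition with LY294002 lowered 6 of the 28 genes tested and raised 1, a call meaning an adjusted p below 0.05 in limma. Lower were Ddit4, an inhibitor of mTORC signaling that hypoxia and stress induce, the carbonic anhydrases Car12 and Car9, the aldolase isozyme Aldoc, the glucose transporter Slc2a3 and Pfkfb4, which sets the level of the sugar phosphate that drives phosphofructokinase. Ndrg1, a stress- and hypoxia-induced gene, was higher. The 6 lower calls were 21.4% of the genes tested, against 1.78% of all probe sets lower in this comparison, and the 1 higher call was 3.6%, against 6.83% of all. With the replicate number as a block, which paired the LY294002 and DMSO arrays, the counts stayed at 6 lower and 1 higher. In that fit 5.10% of all probe sets were lower and 13.3% higher. With the probe sets of each gene averaged the counts were also 6 and 1, against 3.23% of all genes tested lower and 8.31% higher. The median difference of the genes was -0.11, and -0.02 over all probe sets tested, with 12 of 29 positive and 17 negative. In RNA of whole cultures fewer cells of a type and less RNA per cell cannot be told apart. Chondrocyte markers moved with the treatment: 3 of 12 were called higher and all 12 differences were positive, with a summed log2 signal of 16.43 to 16.47 in LY294002 cultures, against 16.06 to 16.15 in DMSO cultures, and none was below the filter. Of 18 skeletal muscle markers none was called in limma (3 were lower at an unadjusted p of 0.05), 17 differences were negative, and the sum lay between 11.64 and 12.52 in LY294002 cultures and between 11.77 and 12.87 in DMSO cultures, with Myf5, Myh8 and Neb below the filter in both. Of 8 epithelial markers all 8 differences were negative, with Krt18 called lower (-1.47, adjusted p = 1.08e-06), and their sum was 11.05 to 11.27 in LY294002 cultures, against 11.42 to 11.61 in DMSO cultures, with Cdh1 below the filter in both. Of 7 osteoclast markers all 7 differences were negative, with Acp5 called lower (-0.34, adjusted p = 0.0339), and their sum was 10.82 to 10.89 in LY294002 cultures, against 11.08 in each DMSO culture, with Calcr below the filter in both. The part of these markers in the result was not tested.

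The count of lower genes depended on the scaling and on the experiments. It was 14 after quantile normalization, when Hk1, Pfkp, Aldoa, Tpi1, Pgk1, Pgam1, Pkm and Ldha also passed, and 4.08% of all probe sets were then lower and 6.69% higher. With each array centred on its median it was 4, Pfkfb4 (adjusted p = 0.111) and Car9 (adjusted p = 0.0908) losing their calls in limma, and 1.09% of all probe sets were lower and 9.02% higher. Higher calls were thus 62.1% of all calls after quantile normalization, where lower calls over all probe sets numbered 1410, against 616 with the deposited scaling, while higher calls numbered 2309 and 2362, and they were 79.3% with the deposited scaling and 89.2% after centring. The count was 3 in a fit of the 6 arrays alone, against 0.411% of all probe sets lower. Without the arrays numbered 1, 2 and 3 in every treatment it was 4, 0 and 3, against 0.985%, 0.157% and 0.327% of all probe sets.

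MEK inhibition with UO126 raised 2 of 28 genes, Bnip3, which marks mitochondria for removal by autophagy, and P4ha1, the catalytic subunit of a prolyl hydroxylase of collagen, and lowered none. The 2 were 7.1% of the genes tested, against 1.14% of all probe sets higher, and the 0 lower genes stand against 0.792% of all probe sets lower. At an unadjusted p of 0.05 in limma, 2 genes were lower, Slc2a3 and Pfkp. The median difference was 0.08, and 0.00 over all probe sets, with 19 of 29 positive. With the replicate number as a block, which paired the UO126 and DMSO arrays, Slc2a3 (-0.31, adjusted p = 0.0378) and Pfkp (-0.35, adjusted p = 0.0244) were also called lower in limma, and 1.90% of all probe sets were lower in that fit. Of the 12 chondrocyte markers 3 were called higher, with all 12 differences positive, and their summed signal was 16.40 to 16.64 in UO126 cultures, against 16.06 to 16.15 in DMSO cultures. Of 18 muscle markers 14 were positive and none was called in limma (3 were higher at an unadjusted p of 0.05), with a sum of 12.15 to 13.17 in UO126 cultures and 11.77 to 12.87 in DMSO cultures, and Myf5 and Neb were below the filter in both, Myh8 in DMSO cultures only. Of 8 epithelial markers 7 differences were negative, Krt18 was called lower (-1.39, adjusted p = 3.45e-06), and the sum was 11.25 to 11.36 in UO126 cultures, against 11.42 to 11.61 in DMSO cultures, with Cdh1 below the filter in both. The part of these markers in the result was not tested.

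SB202190 raised 1 of 28 genes, the muscle-type phosphofructokinase Pfkm, and lowered 1, Ddit4. Both were 3.6% of the genes tested, against 1.23% of all probe sets higher and 0.706% lower. The median difference was 0.02, and -0.01 over all probe sets. With the replicate block, which paired the SB202190 and DMSO arrays, 4 genes were called higher and 2 lower, against 3.58% of all probe sets higher and 1.93% lower in that fit. The genes gained were Ndrg1 (0.48, adjusted p = 0.00245), Adm (0.41, adjusted p = 0.0201) and Bnip3 (0.38, adjusted p = 0.0224) among the higher and P4ha2 (-0.39, adjusted p = 0.0139) among the lower in limma. No chondrocyte marker was called in limma (3 were lower at an unadjusted p of 0.05), 10 of 12 differences were negative, and the summed signal was 15.89 to 16.10 in SB202190 cultures and 16.06 to 16.15 in DMSO cultures. Of 18 markers of muscle, a tissue in which Pfkm is the main phosphofructokinase, 14 differences were positive and none was called in limma (2 were higher and 1 lower at an unadjusted p of 0.05), with a sum of 12.32 to 13.07 in SB202190 cultures and 11.77 to 12.87 in DMSO cultures, and Myf5 and Neb were below the filter in both, Myh8 in DMSO cultures only. Of 10 macrophage markers tested 1, Cd68, was called higher, with 4 positive and 8 negative differences among the 12 measured. Their sum was 11.01 to 11.18 in SB202190 cultures and 10.96 to 11.21 in DMSO cultures. Of 6 osteoclast markers tested 1, Acp5, was called higher, with 3 positive and 4 negative differences among the 7 measured. The part of these markers in the result was not tested.

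TSA changed most of the genes: 18 of 29 rose and 4 fell. Both glucose transporters rose, as did 7 of 10 genes of upper glycolysis, Pkm in lower glycolysis, Pdk1, Egln3, Bnip3, the stress genes Ndrg1, Adm, Ankrd37 and Ddit4, and Car9. Hk2, Pfkl, Ldha and P4ha1 fell. The 18 were 62.1% of the genes tested, against 23.0% of all probe sets higher, and the 4 were 13.8%, against 20.6% lower. The median difference was 0.47, and -0.06 over all probe sets tested, with 25 of 29 positive. Pfkfb3, Pgk1, Pgam1, Hif1a, Egln1, P4ha2 and Car12 did not pass, with differences between 0.01 and 0.35. Ankrd37 reached the filter through its TSA mean alone, at 5.96 in TSA cultures and 5.49 in DMSO cultures (0.47, adjusted p = 0.00113 in limma), and so had to differ to be tested. Without it 17 of 28 genes rose (60.7%). In the kinase inhibitors it stayed below the filter and was not tested.

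Marker genes of several cell types also moved with TSA. All 12 chondrocyte markers were called lower, with a summed log2 signal of 15.09 to 15.48 in TSA cultures, against 16.06 to 16.15 in DMSO cultures. Of 18 muscle markers 12 were called lower of 15 tested, and the sum was 10.88 to 10.99 in TSA cultures, against 11.77 to 12.87 in DMSO cultures, with Myf5, Myh8 and Neb below the filter in both. Fibroblast and perichondrium markers had 9 of 12 lower and 2 higher, at 15.02 to 15.19 in TSA cultures, against 15.50 to 15.76 in DMSO cultures. Macrophage markers had 7 of 10 lower and 1, Cd68, higher, with sums of 11.02 to 11.14 in TSA cultures and 10.96 to 11.21 in DMSO cultures. Osteoclast markers had 1 of 6 lower, Ctsk (-2.27, adjusted p = 1.70e-11), at 9.97 to 10.04 in TSA cultures, against 11.08 in each DMSO culture. Epithelial markers had 2 of 7 higher, Krt18 (2.19, adjusted p = 3.94e-11) and Krt19 (3.15, adjusted p = 1.02e-10), and a sum of 12.59 to 12.72 in TSA cultures, against 11.42 to 11.61 in DMSO cultures, although 5 of 8 differences were negative and their median was -0.06. Their part in the changes of the glycolytic and hypoxia genes was not tested.

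**Figure D2:**
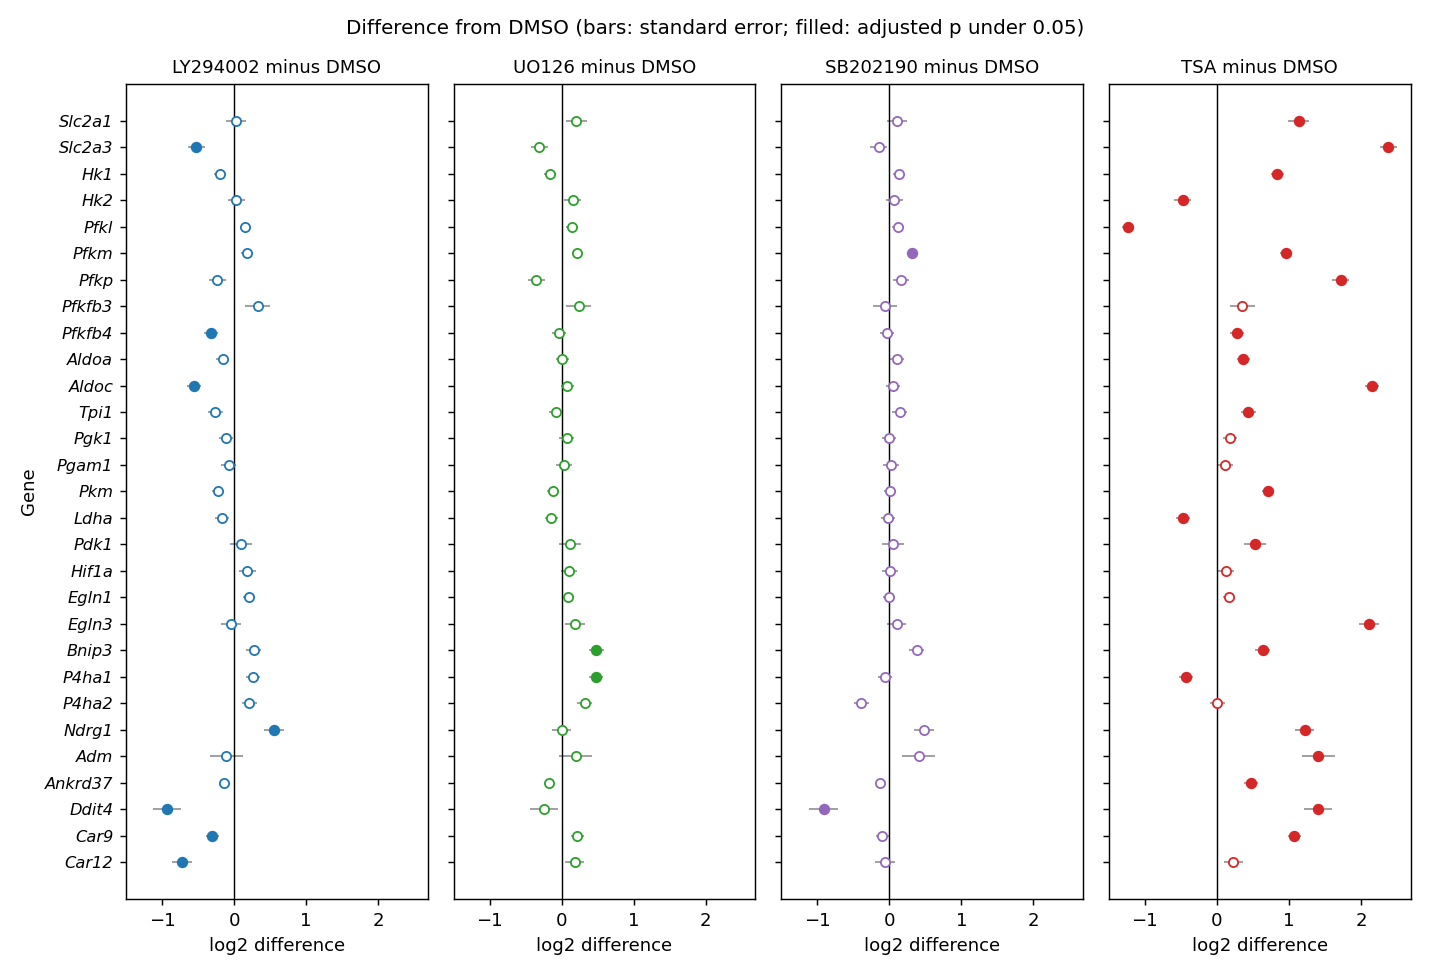
Log2 difference from DMSO for each gene (points, bars giving the standard error), in 4 panels in the order LY294002, UO126, SB202190 and TSA, filled where called. Ankrd37 is drawn open with no bar where it was not tested. The TSA panel runs from -1.23 for Pfkl to 2.38 for Slc2a3, while the other panels stay between -0.93 and 0.55.

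Glucose enters the cell through Slc2a1 and Slc2a3, the transporters GLUT1 and GLUT3. Slc2a3 had log2 signals of 10.49, 10.44 and 10.48 in the 3 TSA cultures, against 8.28, 8.004 and 7.99 in DMSO cultures. The TSA arrays lay far above all others, and the difference of 2.38 ± 0.12 (SE, as for every difference below), a 5.20-fold change, was the largest among the 29 genes in that comparison (adjusted p = 8.39e-11, limma). In LY294002 cultures Slc2a3 had 7.81, 7.56 and 7.33, below each of the DMSO values, a difference of -0.52 ± 0.12 (adjusted p = 0.0109). A second probe set of Slc2a3 gave -0.33 there (adjusted p = 0.0264), and the first lost its call in the fit of 6 arrays (adjusted p = 0.0897). With the replicate block the first kept its call, and its same-numbered differences lay between -0.66 and -0.44. In UO126 and SB202190 cultures the differences were -0.31 and -0.15, with no call. Slc2a1 rose in TSA by 1.13 ± 0.14, with a mean of 11.23 ± 0.12 in TSA cultures and 10.10 ± 0.27 in DMSO cultures (SD, n = 3 each), and adjusted p = 6.33e-06. Its means were 10.12 in LY294002, 10.30 in UO126 and 10.20 in SB202190 cultures, within the range of the DMSO arrays.

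Hexokinase and phosphofructokinase set the pace of upper glycolysis, and their isozymes went opposite ways in TSA. Hk1 rose by 0.84 ± 0.08 (adjusted p = 3.88e-07), with 11.44, 11.29 and 11.46 in TSA cultures and 10.53, 10.59 and 10.55 in DMSO cultures, whereas Hk2, the insulin- and hypoxia-responsive isozyme, fell by 0.47 (SE 0.12, adjusted p = 0.00358). Hk2 had 8.94, 8.74 and 8.99 in TSA cultures, all below the 9.41, 9.27 and 9.42 of DMSO cultures. Among the phosphofructokinases, the platelet type Pfkp had 10.98, 10.95 and 11.18 in TSA cultures, against 9.42, 9.17 and 9.37 in DMSO cultures, and rose by 1.72 ± 0.12 (adjusted p = 3.62e-09). The liver type Pfkl had 9.40, 9.16 and 9.27 in TSA cultures, against 10.57, 10.52 and 10.43 in DMSO cultures, a difference of -1.23 ± 0.08 (adjusted p = 2.07e-09). The arrays of both genes were fully apart, in opposite directions, and a second probe set of each gave 1.31 and -0.99 for Pfkp and Pfkl. Pfkm rose by 0.96 ± 0.08 in TSA (adjusted p = 2.86e-08). In SB202190 cultures Pfkm had 10.13, 10.11 and 10.09, against 9.85, 9.80 and 9.72 in DMSO cultures, and the 2 sets did not overlap. That difference of 0.32 ± 0.08 (adjusted p = 0.0416) lost its call without DMSO replicate 2 (0.33, adjusted p = 0.111) or 3 (0.28, 0.172), without SB202190 replicate 1 (0.31, 0.172), 2 (0.32, 0.142) or 3 (0.33, 0.1001), and without the TSA arrays (0.32, 0.0511). With the replicate block the call held, and the same-numbered differences of Pfkm lay between 0.28 and 0.37.

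Aldolase splits the hexose into trioses, and Aldoc, its brain-type isozyme, changed in opposite directions in 2 treatments. Aldoc had 7.02, 6.96 and 6.91 in LY294002 cultures and 9.80, 9.61 and 9.64 in TSA cultures, against 7.65, 7.55 and 7.37 in DMSO cultures. Every LY294002 array was below and every TSA array above the DMSO arrays. The differences were -0.56 ± 0.10 in LY294002 (adjusted p = 0.00216) and 2.15 ± 0.10 in TSA (adjusted p = 2.78e-11), and 0.08 in UO126 and 0.05 in SB202190 with no call. The promoter window of Aldoc printed above holds 3 cores. The widely expressed Aldoa rose by 0.37 ± 0.09 in TSA (adjusted p = 0.00407), a call lost without the arrays numbered 3 in every treatment (0.32, 0.0705), and was -0.16 in LY294002. Of the enzymes that make the activator of phosphofructokinase, Pfkfb4 had 7.97, 7.78 and 7.72 in LY294002 cultures, against 8.35, 8.05 and 8.06 in DMSO cultures. The LY294002 arrays were all lower, by -0.33 ± 0.10 on average (adjusted p = 0.0447), but the call did not hold without DMSO replicate 1 (-0.23, adjusted p = 0.108), 2 (-0.38, 0.0596) or 3 (-0.37, 0.0659) or LY294002 replicate 2 (-0.31, 0.120) or 3 (-0.28, 0.120), after median centring, with no filter (adjusted p = 0.0517) or without the TSA arrays (adjusted p = 0.0515). The same-numbered differences of Pfkfb4 in LY294002 lay between -0.38 and -0.26, and its call held with the replicate block. Pfkfb4 was 0.28 higher in TSA (adjusted p = 0.0269), a call lost without DMSO replicate 2 (0.23, 0.112) or 3 (0.23, 0.103) or TSA replicate 1 (0.24, 0.0929) or 3 (0.25, 0.0896). Pfkfb3 had differences of 0.33 in LY294002, 0.23 in UO126, -0.06 in SB202190 and 0.35 in TSA, with none called. Tpi1, which interconverts the trioses, rose by 0.44 ± 0.10 in TSA (adjusted p = 0.00209) and was -0.26 in LY294002 (adjusted p = 0.124).

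**Figure D3:**
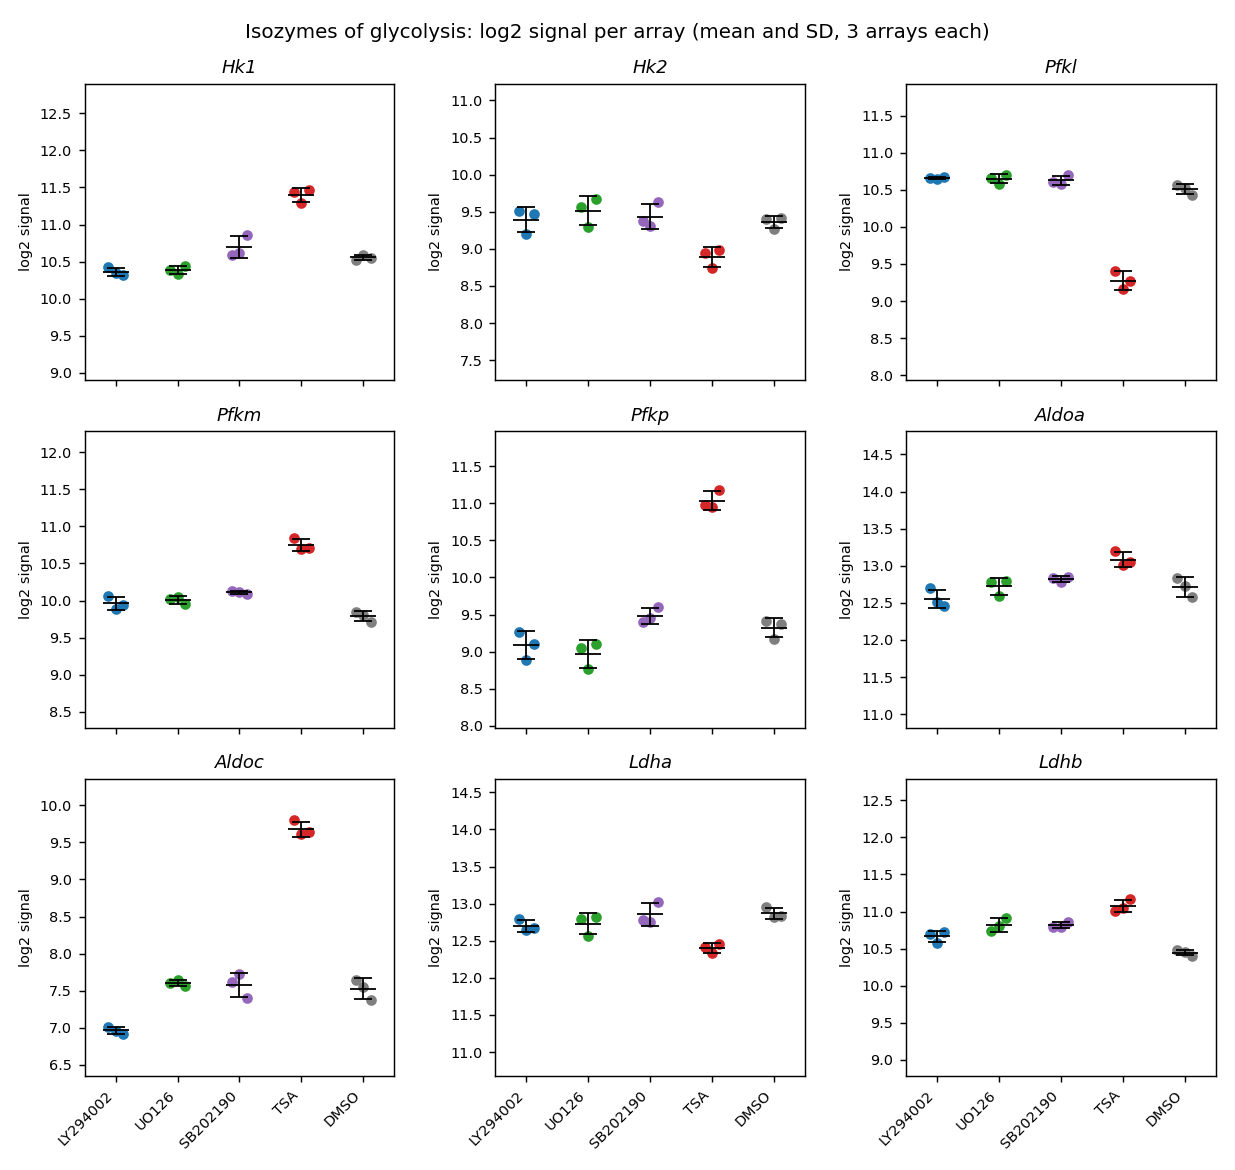
Log2 signal per array (points), mean and SD (bars) of isozymes of hexokinase (Hk1, Hk2), phosphofructokinase (Pfkl, Pfkm, Pfkp), aldolase (Aldoa, Aldoc) and lactate dehydrogenase (Ldha, Ldhb) in LY294002, UO126, SB202190, TSA and DMSO cultures. In TSA the points of Hk1, Pfkm, Pfkp and Aldoc lie above and those of Hk2, Pfkl and Ldha below the DMSO points, each axis spanning the same range of log2 signal.

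Of the 3 measured genes of lower glycolysis, 1 was called, Pkm in TSA. Pgk1, which makes the first ATP of the pathway, had means of 12.94 in LY294002, 13.12 in UO126, 13.05 in SB202190 and 13.24 in TSA cultures, against 13.05 ± 0.14 in DMSO cultures (SD, n = 3), with no call and arrays that overlapped DMSO in all 4. Pgam1, the phosphoglycerate mutase, had differences between -0.08 and 0.11. Pkm, pyruvate kinase of muscle and most other tissues, rose by 0.71 ± 0.09 in TSA (adjusted p = 3.95e-06) and was -0.23 in LY294002, where each array was below each DMSO array without a call (adjusted p = 0.123). Gapdh, which served as reference gene in the study's PCR, was read here from its 3′ array control probe set with no test. Its mean was 13.33 ± 0.06 in LY294002, 13.40 ± 0.09 in UO126, 13.54 ± 0.07 in SB202190 and 13.54 ± 0.07 in TSA cultures, against 13.38 ± 0.12 in DMSO cultures (SD, n = 3 each). On this probe set the arrays overlapped DMSO in every treatment, with differences of -0.05, 0.01, 0.16 and 0.16 in that order. On the middle (M) control probe set the DMSO arrays had 13.37, 13.26 and 13.25. There each TSA array (13.46, 13.40 and 13.58) and each SB202190 array (13.38, 13.41 and 13.57) lay above them. On the 5′ control probe set the TSA and SB202190 arrays overlapped DMSO.

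Of the genes that decide the fate of pyruvate, Ldha, the lactate dehydrogenase subunit that HIF induces, fell in TSA. It had 12.42, 12.33 and 12.45 in TSA cultures, below the 12.96, 12.83 and 12.83 of DMSO cultures, a difference of -0.47 ± 0.09 (adjusted p = 0.000594). In LY294002, UO126 and SB202190 it averaged 12.70, 12.73 and 12.85, with no call. Pdk1, the kinase that shuts off pyruvate dehydrogenase, rose by 0.53 ± 0.15 in TSA (adjusted p = 0.0099), and 2 further probe sets gave 1.04 and 1.99. It fell short of a call when DMSO replicate 3 (0.43, adjusted p = 0.0520) or replicate 1 of TSA (0.42, 0.0580) was omitted.

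HIF and its oxygen sensors differed in how far they moved. Hif1a had means of 12.28 in LY294002, 12.20 in UO126, 12.11 in SB202190 and 12.22 in TSA cultures, against 12.10 ± 0.20 in DMSO cultures (SD, n = 3), and no call. A second, dimmer probe set of Hif1a gave 0.33 in TSA (adjusted p = 0.0338). Egln3, the prolyl hydroxylase that HIF itself induces, had 9.78, 9.75 and 9.74 in TSA cultures, against 7.43, 7.76 and 7.75 in DMSO cultures. The gap of 2.11 ± 0.14, or 4.31-fold (adjusted p = 1.97e-09), was many times the spread within either group, and a second probe set gave 2.19. In LY294002, UO126 and SB202190 cultures Egln3 averaged 7.60, 7.83 and 7.75, overlapping DMSO. Egln1, the main sensor under normal oxygen, was not called in any treatment, with 0.17 in TSA and 0.21 in LY294002, although another of its probe sets gave -0.39 in TSA (adjusted p = 0.00207).

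Bnip3 had 10.57, 10.49 and 10.93 in UO126 cultures and 10.79, 10.79 and 10.89 in TSA cultures, against 10.26, 10.14 and 10.16 in DMSO cultures. Both treated sets lay above DMSO without overlap, by 0.48 ± 0.10 in UO126 (adjusted p = 0.0202) and 0.64 ± 0.10 in TSA (adjusted p = 7.88e-05). Bnip3 was also above each DMSO array in LY294002 cultures, with a mean of 10.46 and a difference of 0.27, and in SB202190 cultures, with 10.56 and 0.38. Neither was called in the main fit, which has no block and uses the deposited scaling. In SB202190 Bnip3 was called with the block and with the probe sets of each gene averaged (adjusted p = 0.0430, limma). The call in UO126 did not hold when DMSO replicate 2 (0.45, adjusted p = 0.0869) or 3 (0.47, 0.0826) or replicate 3 of UO126 (0.35, 0.110) was left out. With the block on all arrays it held, and the same-numbered differences of UO126 from DMSO lay between 0.31 and 0.77.

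The collagen prolyl hydroxylases P4ha1 and P4ha2, which stabilize the collagen triple helix and are hypoxia targets in chondrocytes, separated the treatments. P4ha1 had 11.13, 10.95 and 11.11 in UO126 cultures and 10.10, 10.12 and 10.25 in TSA cultures, against 10.77, 10.61 and 10.37 in DMSO cultures. It was above all DMSO arrays in UO126 (0.48 ± 0.10, adjusted p = 0.0146) and below all of them in TSA (-0.43 ± 0.10, adjusted p = 0.00186), though not called there without the arrays numbered 2 in every treatment (-0.40, adjusted p = 0.0548). It no longer passed in UO126 once DMSO replicate 3 (0.37, adjusted p = 0.0853) or replicate 1 (0.44, 0.0691) or 3 (0.46, 0.0738) of UO126 was omitted, and the mean of its probe sets gave 0.34 (0.0943). With the block the call in UO126 held, and the same-numbered differences lay between 0.34 and 0.74. P4ha2 averaged 10.58 in LY294002, 10.69 in UO126, 9.98 in SB202190 and 10.38 in TSA cultures, against 10.37 in DMSO cultures. It was called in no comparison with DMSO in the main fit, but differed between inhibitors: LY294002 exceeded SB202190 by 0.60 ± 0.11 (adjusted p = 0.00292) and UO126 exceeded SB202190 by 0.71 ± 0.11 (adjusted p = 0.000496). In SB202190 it was called lower than in DMSO with the block, after quantile normalization (-0.44, adjusted p = 0.00391) and with averaged probe sets (-0.39, 0.0420).

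Ddit4, also called REDD1, restrains mTORC signaling under stress, and it was the member called in the most kinase inhibitors. Ddit4 had 9.12, 8.80 and 8.93 in LY294002 cultures, 8.56, 8.86 and 9.48 in SB202190 cultures and 11.54, 11.30 and 11.003 in TSA cultures, against 10.05, 9.78 and 9.81 in DMSO cultures. LY294002 and SB202190 arrays were all below and TSA arrays all above DMSO, while the UO126 arrays, with 9.62, 9.36 and 9.91, overlapped it. The differences were -0.93 ± 0.19 in LY294002 (1.904-fold lower, adjusted p = 0.00772), -0.91 ± 0.19 in SB202190 (1.88-fold lower, adjusted p = 0.0215) and 1.398 ± 0.19 in TSA (2.64-fold higher, adjusted p = 1.59e-05), and -0.25 in UO126 without a call. The 2 declines differed by -0.02 (SE 0.19) and the direct comparisons of LY294002 with UO126 (-0.68, adjusted p = 0.0521) and of UO126 with SB202190 (0.66, 0.0624) did not pass. The SB202190 arrays spread widely, with an SD of 0.47 against 0.15 in DMSO, and the call did not hold on omitting DMSO replicate 1 (-0.83, adjusted p = 0.0522), 2 (-0.96, 0.0563) or 3 (-0.95, 0.0629) or replicate 1 (-0.71, 0.129) or 2 (-0.86, 0.0995) of SB202190. With the replicate block that call held, although the same-numbered differences ranged from -1.49 to -0.33.

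Ndrg1, the hypoxia- and stress-induced gene named above, had 10.33, 10.06 and 10.22 in LY294002 cultures and 10.83, 10.66 and 11.11 in TSA cultures, against 9.78, 9.41 and 9.76 in DMSO cultures. Both sets were above DMSO, by 0.55 ± 0.14 in LY294002 (adjusted p = 0.0186) and 1.22 ± 0.14 in TSA (adjusted p = 1.33e-06). SB202190 arrays were above DMSO too (10.14 on average, 0.48 with no call in the main fit), and UO126 arrays were not (9.65 on average, as in DMSO). In SB202190 Ndrg1 was called with the block and after quantile normalization (0.45, adjusted p = 0.0311). LY294002 exceeded UO126 directly by 0.55 (adjusted p = 0.0236). The call in LY294002 did not hold when DMSO replicate 2 (0.43, adjusted p = 0.106) or replicate 1 of LY294002 (0.49, 0.0883) was left out, in fits without the block. With the block on all arrays it held, and the same-numbered differences of LY294002 from DMSO lay between 0.46 and 0.65. Of 4 further probe sets of Ndrg1 1 was called, at 0.66. Adm, the vasodilator peptide adrenomedullin, had 10.88, 10.75 and 10.20 in TSA cultures, against 9.46, 9.12 and 9.03 in DMSO cultures. The TSA arrays were all higher, by 1.41 ± 0.23 (adjusted p = 7.18e-05), although the spread of Adm was wide in most groups, with SDs up to 0.45 in LY294002. Its differences in LY294002, UO126 and SB202190 were -0.11, 0.19 and 0.41.

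Car9 and Car12 are membrane carbonic anhydrases that turn over carbon dioxide and protons at the cell surface. Car12 had 7.85, 7.45 and 7.66 in LY294002 cultures, against 8.50, 8.21 and 8.42 in DMSO cultures. The LY294002 arrays were all lower, by -0.73 ± 0.14 or 1.65-fold (adjusted p = 0.00405), and a dimmer probe set gave -0.49 without a call. In UO126, SB202190 and TSA the differences of Car12 were 0.18, -0.06 and 0.23, none called. Car9 was lower in LY294002 as well (-0.31 ± 0.09, adjusted p = 0.0440), with 6.78, 6.83 and 6.95 in LY294002 cultures and 7.10, 7.14 and 7.25 in DMSO cultures, and rose in TSA by 1.07 ± 0.09 (adjusted p = 4.65e-08). The decline of Car9 lost its call without DMSO replicate 2 (-0.32, adjusted p = 0.105) or 3 (-0.26, 0.166) or LY294002 replicate 1 (-0.27, 0.162) or 2 (-0.29, 0.114), after median centring (-0.26, 0.0908) and with no filter (adjusted p = 0.0503). With the replicate block the call held, and the same-numbered differences of Car9 lay between -0.31 and -0.29.

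**Figure D4:**
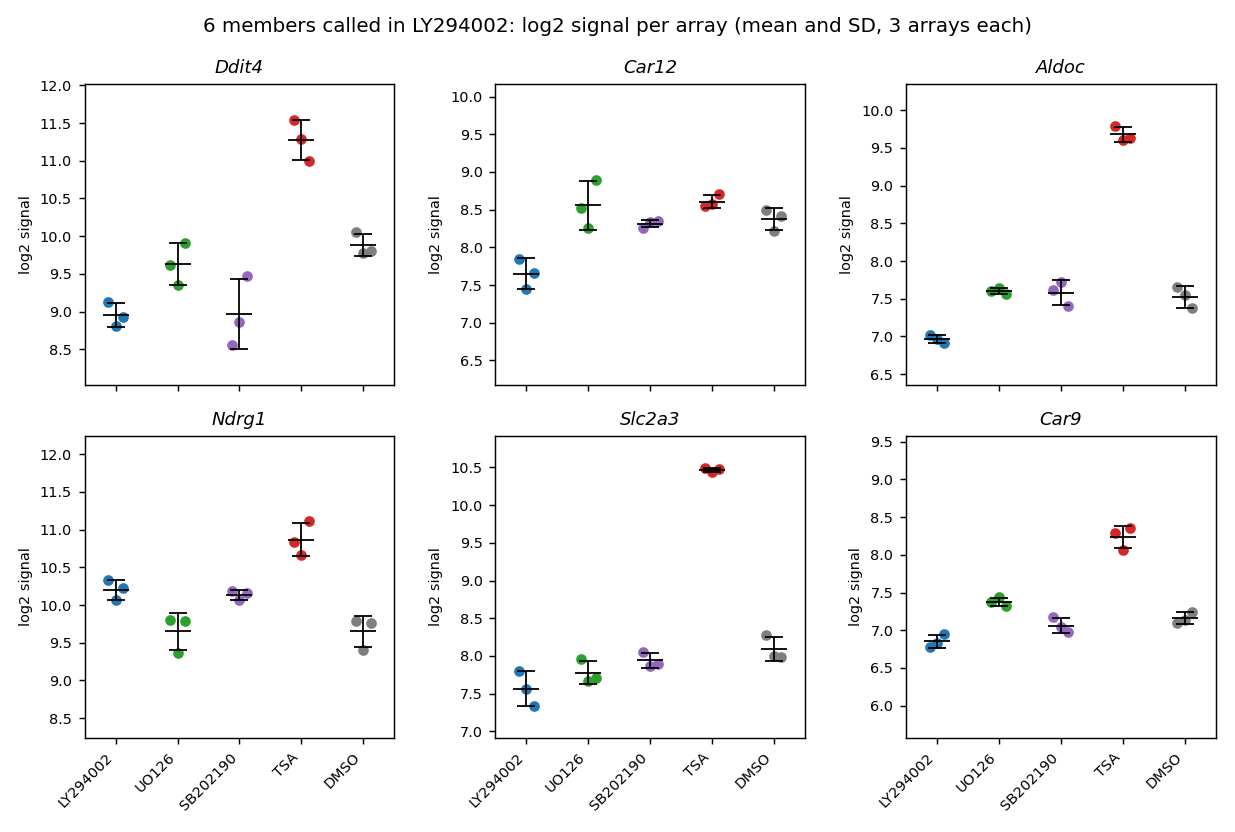
Log2 signal per array (points), mean and SD (bars) of Ddit4, Car12, Aldoc, Ndrg1, Slc2a3 and Car9, 6 of the 7 genes called in LY294002, in LY294002, UO126, SB202190, TSA and DMSO cultures. In each panel the 3 LY294002 points lie on one side of the 3 DMSO points, above them for Ndrg1 and below them for the others, and TSA points lie above the LY294002 points in all 6 panels.

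Because the 4 comparisons share the DMSO arrays, differences between inhibitors were tested directly. LY294002 was below UO126 for Aldoc (-0.64, adjusted p = 0.000885), Car12 (-0.91, adjusted p = 0.000943) and Car9 (-0.52, adjusted p = 0.00252) and above it for Ndrg1, which made 4 of 28 genes called, against 5.64% of all probe sets. LY294002 was below SB202190 for Car12 (-0.66, adjusted p = 0.00844), Aldoc (-0.62, adjusted p = 0.00118), Tpi1 (-0.41, adjusted p = 0.0291) and Hk1 (-0.33, adjusted p = 0.0345) and above it for P4ha2, 5 of 28 genes, against 4.60% of all. UO126 and SB202190 differed in 5 of 28 genes, against 5.22% of all: P4ha1 (0.54, adjusted p = 0.00259) and P4ha2 were higher in UO126, and Pfkp (-0.51, adjusted p = 0.0128), Hk1 (-0.30, adjusted p = 0.0464) and Ndrg1 (-0.49, adjusted p = 0.0472) lower. For Aldoc and Car12 LY294002 thus differed from both other kinase inhibitors, which had no call against DMSO in either gene. Against TSA, 24 of 29 genes were called in LY294002 (40.0% of all probe sets), 22 in UO126 (42.6%) and 22 in SB202190 (38.3%). Each count includes Ankrd37, tested only through its TSA mean, and without it they were 23, 21 and 21 of 28. Hk2, Pfkl, Ldha and P4ha1 were higher in each kinase inhibitor than in TSA, and P4ha2 was also higher in UO126.

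The wider pathway was read from 62 further genes of glucose, glycogen, pyruvate and oxygen metabolism, of which 56 were measured and tested. In LY294002, 10 rose (17.9%, against 6.83% of all probe sets) and 3 fell (5.4%, against 1.78%), the largest being Slc16a3, the lactate exporter MCT4 (-0.75, adjusted p = 9.34e-05), Epas1, the HIF alpha subunit HIF2A (0.68, adjusted p = 0.00103), Ppp1r3c, which targets a phosphatase to glycogen (0.67, adjusted p = 0.0417), and the histone demethylase Kdm3a (0.50, adjusted p = 0.0290). In UO126, 3 rose (5.4%, against 1.14%) and 1 fell (1.8%, against 0.792%): the mitochondrial adenylate kinase Ak4 (0.54, adjusted p = 0.0214), the collagen lysyl hydroxylase Plod2 (0.53, adjusted p = 0.00686), the lactate dehydrogenase subunit Ldhb (0.37, adjusted p = 0.0155) and the neuronal enolase Eno2 (-0.52, adjusted p = 0.0246). In SB202190, 6 rose (10.7%, against 1.23%) and 2 fell (3.6%, against 0.706%), the largest being Ppp1r3c (-0.90, adjusted p = 0.0220), the heme oxygenase Hmox1 (0.86, adjusted p = 0.0287), Epas1 (0.85, adjusted p = 0.000346) and Eno2 (0.55, adjusted p = 0.0196). In TSA, 24 rose (42.9%, against 23.0%) and 8 fell (14.3%, against 20.6%), led by the MYC antagonist Mxi1 (2.05, adjusted p = 2.05e-10), the pyruvate dehydrogenase kinase Pdk4 (1.86, adjusted p = 2.18e-07), Eno2 (1.77, adjusted p = 2.45e-09) and Slc16a3 (1.59, adjusted p = 1.89e-10). The medians of the 56 were 0.09 in LY294002, 0.08 in UO126, 0.06 in SB202190 and 0.16 in TSA.

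Like Aldoc, Slc16a3 was low in LY294002 and high in TSA, with 7.80, 7.87 and 7.69 in LY294002 cultures and 10.09, 10.19 and 10.10 in TSA cultures, against 8.50, 8.62 and 8.51 in DMSO cultures. Its LY294002 arrays were the lowest of the 15 and its TSA arrays the highest. It was lower in LY294002 than in UO126 (-0.91, adjusted p = 1.26e-05), and the difference from SB202190 (-0.29, adjusted p = 0.0611) did not pass. In SB202190 it was also called lower than in DMSO (-0.47, adjusted p = 0.00718). Epas1 had 10.34, 10.09 and 10.22 in LY294002 cultures and 10.38, 10.36 and 10.43 in SB202190 cultures, against 9.68, 9.43 and 9.49 in DMSO cultures. Both sets were above DMSO, and in UO126 cultures, at 9.17, 8.95 and 9.32, all arrays were below DMSO with no call (-0.39, adjusted p = 0.0699). Epas1 was thus higher in LY294002 than in UO126 (1.07, adjusted p = 2.49e-05) and lower in UO126 than in SB202190 (-1.24, adjusted p = 1.43e-06). In TSA it rose by 0.73 (adjusted p = 1.99e-05).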

How the data were processed

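Total RNA of primary mouse chondrocyte cultures was measured on 15 Affymetrix mouse expression arrays, 3 for each of 5 treatments, with groups and replicate numbers taken from the sample titles. The deposited table holds log2 signals, 1 per probe set and array, which the authors had background-corrected, normalized between arrays and summarized before deposit. The methods name GC-RMA for the deposited arrays and RMA for another analysis, so which of them made the table is not settled, and software version and genome build are not given in the sources used here. Precision is limited by having 3 arrays a treatment. Levels of different probe sets were not compared.

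The table has 45101 probe sets, and without 64 array controls 45037 remained. A single gene symbol was given for 34945 of these, several for 932 and no symbol for 9160. A RefSeq table held the identifiers of 34741 probe sets, and 0 symbols were updated from it. A gene was read from its highest-mean probe set among those annotated to it alone. The shares of all probe sets set beside the members also include dimmer probe sets and several of the same gene. A probe set was tested where either group had a mean of at least log2 of 50. All 15 arrays entered 1 linear model in limma 3.58.1 (R 4.3.3), with a mean for each treatment and 10 residual degrees of freedom, with empirical Bayes moderation over the probe sets tested in a comparison, two-sided tests and Benjamini-Hochberg adjustment over all of them, and a call is an adjusted p below 0.05. An exact permutation test of 3 against 3 arrays could not pass that threshold. The fit was tested on simulated data with known changes. Tables and figures were made with Python 3.11.15, pandas 2.3.3 and matplotlib 3.10.9. Promoter windows came from RefSeq on GRCm38.p6.

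The methods name 3 independent experiments for LY294002 and DMSO cultures. Arrays of the same number were checked for pairing by the correlation of their deviations from the group means with those of DMSO. It was 0.77, 0.40 and 0.62 for LY294002, 0.71, 0.54 and 0.33 for UO126, and 0.24, 0.30 and 0.32 for SB202190, all above 0.1, so the numbers pair these arrays. For TSA it was 0.24, 0.47 and 0.028, the last of them below 0.1.

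Every member called in a comparison with DMSO is named, the 6 with the largest difference in full, as are Gapdh, Hif1a, Slc2a1, Ldha, Pgk1, Egln3, Bnip3, Ndrg1 and Ddit4 in all, and up to 4 called genes of the wider pathway list per comparison. Values of other genes, such as Epas1 in UO126, were added after they were seen. The members, lists and tests were chosen with earlier results of these data known. The alternatives were a replicate block, the 6 arrays of 2 treatments alone, no TSA arrays, a filter at a signal of 100 or none, quantile normalization, median centring, a robust prior with a trend, averaging the probe sets of each gene, a 1.4-fold threshold, and leaving out each array. Leaving out the 3 replicate numbers in turn was added after the values were seen. Fits that left out arrays had no replicate block, so that leaving out 1 array left its same-numbered arrays unmatched.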

Additional observations from a re-analysis of the deposited data

How the results depend on the processing

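In TSA, leaving out each array gave 16 to 20 higher and 4 lower genes, and 1 lower gene reached 1.4-fold. With 1 array left out, 20.4% to 24.1% of all probe sets were higher in TSA and 17.3% to 20.3% lower. With a replicate block, 2 genes were called lower in UO126, and 4 were higher and 2 lower in SB202190, against 0, 1 and 1 without it. In TSA, whose numbers paired with DMSO only in part (2 of 3 arrays correlated best with the DMSO array of their own number), the replicate block gave 19 higher and 4 lower genes, adding Pfkfb3, and it changed no other call than those named here and above. In TSA with the block, 25.6% of all probe sets were higher and 25.6% lower. With only the 6 arrays of 2 treatments, LY294002 gave 0 higher and 3 lower genes, UO126 0 higher, and SB202190 0 higher and 0 lower. Of all probe sets, 1.60% were then higher and 0.411% lower in LY294002. In UO126 0.488% were higher, and in SB202190 0.591% were higher and 0.475% lower. Without the TSA arrays SB202190 gave 0 higher genes, against 1.06% of all probe sets. In that setting 9 genes passed the test over the remaining treatments, which has fewer samples. Quantile normalization gave 14 lower genes in LY294002, 1 in UO126 and 2 in SB202190, where 2 were higher. Of all probe sets, 1.32% were then lower in UO126, and 2.26% higher and 1.46% lower in SB202190. Averaging the probe sets of each gene gave 1 higher and 1 lower gene in UO126 and 2 higher and 2 lower ones in SB202190. Of all genes tested, 2.08% were then higher and 1.48% lower in UO126, and 2.08% higher and 1.59% lower in SB202190. At least 1.4-fold whatever the p gave 0 higher genes in UO126 and in SB202190. Leaving out each array gave 0 to 2 higher and 4 to 5 lower genes in LY294002, 0 to 2 higher in UO126, 0 to 1 higher and 0 to 1 lower in SB202190, and 21 to 26 genes in the test over 5 treatments. Of all probe sets, 2.53% to 11.8% were then higher and 0.912% to 3.23% lower in LY294002. In UO126 0.566% to 1.31% were higher, and in SB202190 0.450% to 1.87% were higher and 0.295% to 0.567% lower. The share of all probe sets is not given here for the 1.4-fold counts or the tests over treatments. Without the arrays numbered 1, 2 and 3 in every treatment, LY294002 gave 0, 0 and 0 higher and 4, 0 and 3 lower genes, UO126 1, 0 and 0 higher, SB202190 0, 0 and 0 higher and 0, 0 and 1 lower, and TSA 18, 16 and 16 higher and 4, 3 and 4 lower. In these fits 23.2%, 18.3% and 17.2% of all probe sets were higher in TSA, and 18.9%, 13.8% and 14.9% lower. The higher shares were 4.67%, 0.360% and 1.36% in LY294002, 0.710%, 0.148% and 0.268% in UO126, and 1.20%, 0.0522% and 0.168% in SB202190. The lower shares were 0.985%, 0.157% and 0.327% in LY294002 and 0.346%, 0.0928% and 0.254% in SB202190. Such fits have fewer samples, and for the other settings the cause was not tested.

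Of 116 single differences from DMSO, none changed sign among those called, and of the 33 called, 17 stayed called in every other fit run and 16 were lost in at least 1. All 17 were differences in TSA, and every call in LY294002, UO126 and SB202190 was lost in at least 1 fit. Of the 17, 14 also reached 1.4-fold, and Hk2, Tpi1 and Ldha in TSA did not. Ddit4, Car12 and Aldoc in LY294002 were lost only without the arrays numbered 2 in every treatment (adjusted p = 0.160, 0.0605 and 0.0952 in limma), and 18 differences without a call gained one under some alternative.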
